A study of Mus musculus with 9 samples.

Results

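The 10 genes described here are the enzymes and regulators of de novo lipogenesis in mouse liver, chosen by name: Acly, Acaca, Acacb, Fasn, Elovl6, Scd1, Me1, Srebf1, Mlxipl and Thrsp, of 41388 genes in the deposited tables. All 10 passed the low-count filter, which left 14741 genes for testing. The livers came from male C57BL/6J mice that had received the liver carcinogen diethylnitrosamine (DEN; 25 mg per kg, intraperitoneal, at 14 days of age), ate chow and were killed at 6 months. The DKO mice carried a germline deletion of Fabp1, which encodes a fatty acid binding protein of the liver, on top of a liver-specific deletion of Mttp, whose product is needed to put triglyceride into VLDL particles. The MttpLKO mice carried the Mttp deletion with Fabp1 intact, and the controls carried the floxed Mttp alleles only (Mttp f/f). All 3 genotypes received DEN, so no library comes from an untreated liver. Each library pooled RNA from 3 mice of 1 genotype, and there were 3 pools per genotype, so the p-values below measure the spread between pools and not between single mice. The sources used here do not give the driver of the Mttp deletion, the feeding state or the hour of collection.

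De novo lipogenesis turns sugar carbon into fatty acids. Acly, ATP citrate lyase, cleaves citrate to cytosolic acetyl-CoA, the acetyl-CoA carboxylases Acaca and Acacb turn it into malonyl-CoA, and the fatty acid synthase Fasn builds palmitate from both with NADPH that Me1, malic enzyme, helps to supply. Elovl6 lengthens palmitate to stearate, and Scd1 puts a double bond into the product. In liver the pathway is switched on after feeding: Srebf1 encodes the SREBP1 factors, which carry the insulin signal, Mlxipl encodes ChREBP, which carries the glucose signal, and Thrsp encodes Spot14, a protein induced by thyroid hormone and carbohydrate that acts on fatty acid synthesis.

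The sequences ahead of the transcript starts are shown for Fasn, Thrsp and Acly, whose values varied in parallel between libraries, for the carbohydrate factor Mlxipl with both of its starts, and for Me1, the member whose change passed the test. Each is the 250 bases before a RefSeq transcript start (GRCm38.p6), read 5′ to 3′ in the direction of the gene, and capitals mark matches on either strand to 4 motifs that were searched: the E-box CACGTG, the sterol regulatory element core TCACNCCAC, the NF-Y box CCAAT and the GC box GGGCGG.
Fasn (minus strand, chr11:120824548-120824797): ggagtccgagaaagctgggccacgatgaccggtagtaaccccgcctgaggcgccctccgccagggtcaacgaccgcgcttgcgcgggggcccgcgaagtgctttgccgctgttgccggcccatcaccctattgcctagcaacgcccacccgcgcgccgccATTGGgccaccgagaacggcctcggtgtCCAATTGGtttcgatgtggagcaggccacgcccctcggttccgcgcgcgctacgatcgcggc
Thrsp (minus strand, chr7:97417551-97417800): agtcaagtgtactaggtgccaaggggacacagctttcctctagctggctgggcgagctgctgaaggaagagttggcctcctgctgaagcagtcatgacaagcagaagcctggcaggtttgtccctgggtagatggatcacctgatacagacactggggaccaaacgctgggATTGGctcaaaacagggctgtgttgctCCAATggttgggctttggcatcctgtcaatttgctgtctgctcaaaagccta
Acly (minus strand, chr11:100528001-100528250): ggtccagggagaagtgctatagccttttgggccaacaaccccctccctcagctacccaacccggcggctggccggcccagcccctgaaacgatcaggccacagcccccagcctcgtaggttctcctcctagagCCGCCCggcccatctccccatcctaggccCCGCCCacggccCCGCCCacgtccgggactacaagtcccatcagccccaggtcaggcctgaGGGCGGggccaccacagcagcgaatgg
Mlxipl (plus strand, chr5:135106641-135106890): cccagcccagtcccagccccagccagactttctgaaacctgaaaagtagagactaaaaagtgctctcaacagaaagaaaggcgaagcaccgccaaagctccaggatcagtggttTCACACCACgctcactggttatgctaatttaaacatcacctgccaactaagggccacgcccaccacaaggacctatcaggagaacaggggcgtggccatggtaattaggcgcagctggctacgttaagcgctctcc
Mlxipl (plus strand, chr5:135089640-135089889): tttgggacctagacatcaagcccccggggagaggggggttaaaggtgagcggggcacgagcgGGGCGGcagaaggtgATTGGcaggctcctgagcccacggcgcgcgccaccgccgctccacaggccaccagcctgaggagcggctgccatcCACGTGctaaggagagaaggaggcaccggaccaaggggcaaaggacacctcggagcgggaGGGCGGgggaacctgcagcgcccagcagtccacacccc
Me1 (minus strand, chr9:86695915-86696164): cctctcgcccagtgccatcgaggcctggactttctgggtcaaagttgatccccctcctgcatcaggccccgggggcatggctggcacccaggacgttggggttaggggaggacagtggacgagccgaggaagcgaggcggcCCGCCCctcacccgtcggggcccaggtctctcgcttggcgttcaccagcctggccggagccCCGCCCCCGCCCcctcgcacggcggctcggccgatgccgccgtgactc

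In the deposited tables, whose coordinates match GRCm38 annotation for most genes, 4 of the 10 genes lie on chromosome 11: Srebf1 (ENSMUSG00000020538) at 60199089 to 60222581, Acaca (ENSMUSG00000020532) at 84129672 to 84401651, Acly (ENSMUSG00000020917) at 100476353 to 100528000 and Fasn (ENSMUSG00000025153) at 120805940 to 120824178. Chromosome 5 holds Acacb (ENSMUSG00000042010) at 114146535 to 114250761 and Mlxipl (ENSMUSG00000005373) at 135106891 to 135138382. Elovl6 (ENSMUSG00000041220) lies on chromosome 3 at 129532386 to 129638495, Thrsp (ENSMUSG00000035686) on chromosome 7 at 97412938 to 97417730, Me1 (ENSMUSG00000032418) on chromosome 9 at 86581371 to 86695953 and Scd1 (ENSMUSG00000037071) on chromosome 19 at 44394451 to 44407709. The tables also give the summed exon length of each gene. RefSeq transcript starts need not fall on these gene boundaries, as for Fasn, Thrsp, Me1 and the Mlxipl window that begins at 135089640.

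RefSeq gave 13 starts for 9 of the 10 genes, and Scd1 had no entry. The E-box stood at 1 of the 13 starts, the Mlxipl window that begins at 135089640, against 6.02% of all 32851 promoters of that length. The sterol element core also stood at 1 start, the other Mlxipl window, against 1.05% of promoters. The NF-Y box was found for 6 of the 9 genes (Acacb, Fasn, Me1, Mlxipl, Srebf1 and Thrsp), against 33.8% of promoters. In the Fasn window 3 NF-Y boxes were found, of which 2 overlap on opposite strands from 62 to 55 bases before the start, and Thrsp held 2. The GC box was found for Acly, Me1, Mlxipl and Srebf1, against 32.7% of promoters, with 4 copies in the Acly window and 3 in the Me1 window shown. A match says only that these letters are there; members with several starts had more chances to hold one, and no binding was measured.

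The libraries held 23268389 to 27918197 counted reads. Levels are given as CPM, counts scaled to library size. Mttp lay at 3.24 to 5.79 CPM in DKO, 6.14 to 9.78 CPM in MttpLKO and 69.4 to 181 CPM in control libraries. Fabp1 lay at 50.3 to 78.0 CPM in DKO, 3380 to 4980 CPM in MttpLKO and 6060 to 6850 CPM in control libraries. Each deletion thus shows in every library of the genotypes that carry it. Hepatocyte markers dominated as the tissue label says, with Alb, Apoa1 and Ttr the most abundant of 10. Of 10 fat cell markers 6 were tested, and the sum of the 10, mostly Car3, lay at 2040 to 3420 CPM in DKO, 2600 to 3960 CPM in MttpLKO and 2190 to 2910 CPM in control libraries. Lep was at 0 in all libraries and Adipoq and Plin1 were at no more than 0.184 CPM. Cfd, which encodes adipsin, was at 11.7, 56.6 and 2.29 CPM in DKO, 1.29 to 1.53 CPM in MttpLKO and 4.28 to 7.52 CPM in control libraries, and Fabp4 was at 7.56 to 20.2 CPM over all 9. The part of fat cells in the values below was not tested. MttpLKO replicate 3 stood apart from the other 8 libraries, with summed B and plasma cell markers at 637 CPM, against 24.8 to 53.6 CPM elsewhere. Its stellate cell markers were at 442 CPM, against 210 to 297 CPM elsewhere. Its cell cycle, macrophage and bile duct marker sums were also the highest, at 31.0, 196 and 142 CPM. Elsewhere these reached at most 17.1, 156 and 106 CPM. The labels used here give no date or batch.

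As a group the lipogenesis genes had lower values than control in both mutant genotypes, though in DKO replicate 1 they lay near control. Of the 10 only Me1 passed the test over all genes, and only in DKO against MttpLKO and in the test of any genotype difference. In DKO against control, 9 of 10 members had a lower value, where 50.4% of all tested genes did, and the median member log2 fold change was -0.55, against -0.0019 over all tested genes. In MttpLKO against control, 9 of 10 members had a lower value, where 47.7% of all tested genes did, with a median of -0.39 against 0.011. Me1, which is read apart below, was among the lower members in DKO against control and was the higher member in MttpLKO against control. Without Me1 the median of the other 9 was -0.547 in DKO and -0.418 in MttpLKO against control. Library by library, the median log2 difference of these 9 from the control mean was 0.088, -0.71 and -0.98 in DKO replicates 1 to 3. In MttpLKO it was -0.25, -0.68 and -0.19. In DKO replicate 1 only 4 of the 9 lay below the control mean, against 8 in each of DKO replicates 2 and 3. The comparisons with control share the control libraries, and the members moved together between pools. Of the 9 genes other than Me1, control replicate 1 was the highest control library for all 9. MttpLKO replicate 2 was the lowest MttpLKO library for all 9, and DKO replicate 1 the highest DKO library for 8. The counts of lower members are therefore not counts of independent genes. With each library left out in turn these counts ran from 8 to 9 in both comparisons with control. By edgeR's quasi-likelihood test with Benjamini-Hochberg adjustment over all 14741 genes at a threshold of 0.05, 0 of 10 members were called in DKO against control (background 0.332%) and 0 of 10 in MttpLKO against control (background 0.346%). DKO against MttpLKO had 1 member called, Me1 (background 0.4%, or 0.142% for lower calls). A test of any difference between the 3 genotypes also called Me1 alone (background 0.678%). These backgrounds rest on 49, 51, 59 and 100 called genes, and with 1 library left out they ran from 15 to 100 in DKO against control, from 14 to 54 in MttpLKO against control, from 22 to 73 in DKO against MttpLKO and from 47 to 136 for any difference. The lowest came without control replicate 2 or 3 for the comparisons with control and for any difference, and without MttpLKO replicate 2 for DKO against MttpLKO. The 100 in DKO against control came without MttpLKO replicate 3.

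Unadjusted p-values under 0.05 were more frequent. In DKO against control 4 of 10 members had one (Scd1, Me1, Acaca and Thrsp), where 11.2% of all genes did, and in MttpLKO against control 2 of 10 (Scd1 and Fasn), where 6.97% did. DKO against MttpLKO had 1, Me1, where 9.1% of genes did, and the test of any genotype difference had 3 (Acaca, Scd1 and Me1), where 10.3% did. The median moved with single pools. Without control replicate 1 it was -0.35 for DKO and -0.16 for MttpLKO against control, without DKO replicate 3 it was -0.36 for DKO against control, and without MttpLKO replicate 2 it was -0.23 for MttpLKO against control. For DKO against MttpLKO, 6 of 10 members had a lower value, where 53.1% of genes did, and the median was -0.15. The median ranged from -0.39 without DKO replicate 1 to 0.18 without MttpLKO replicate 3. Me1 was 1 of the 6 lower members, and without Me1 the median of the other 9 was -0.108.

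**Figure D1:**
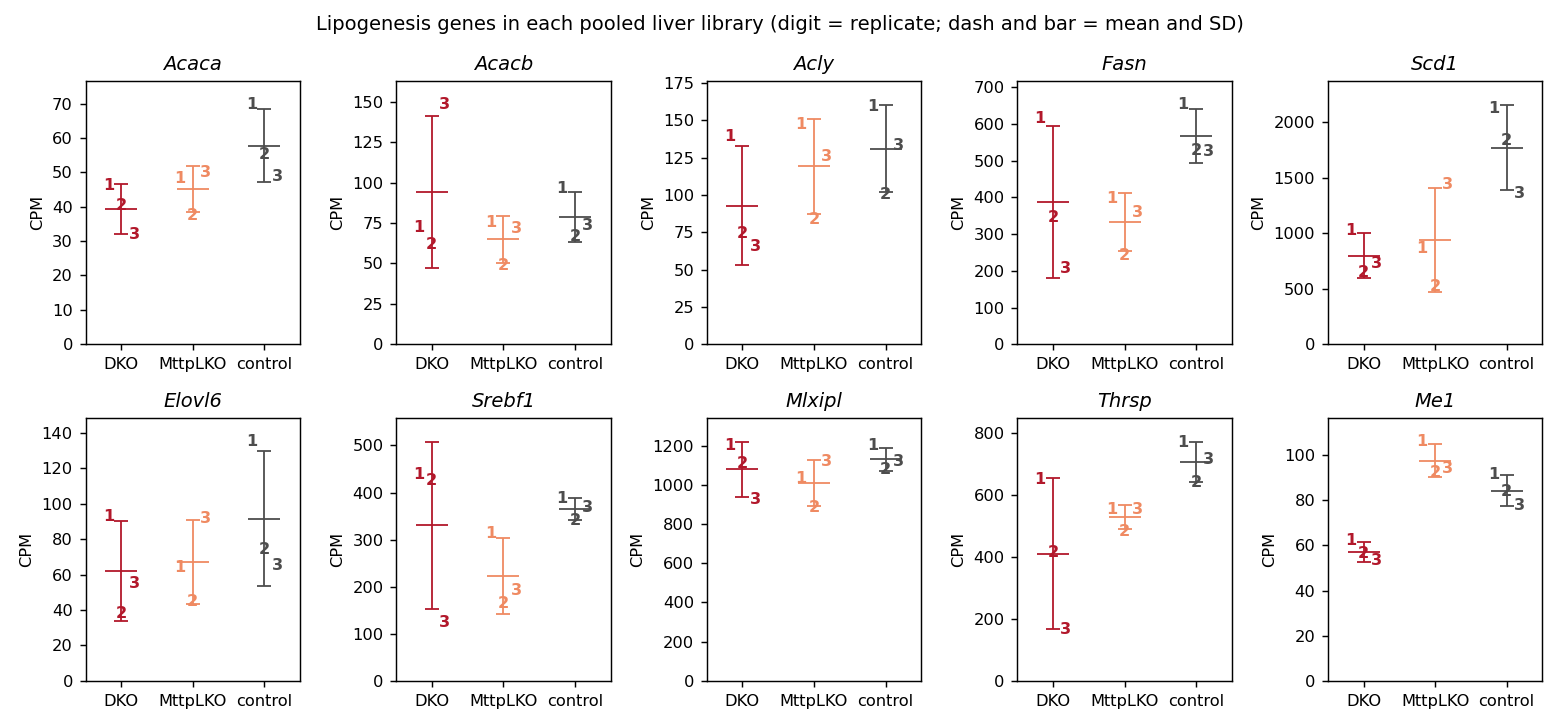
CPM of each gene in the 9 pooled liver libraries, with DKO, MttpLKO and control from left to right; digits give the replicate, and the dash and bar give the mean and SD of 3 libraries. Me1 lies between 53.4 and 62.1 CPM in DKO, below all other libraries, while the DKO libraries span 207 to 614 CPM for Fasn, 125 to 439 CPM for Srebf1 and 165 to 651 CPM for Thrsp.

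Acly was measured at 139, 74.4 and 65.3 CPM in DKO replicates 1 to 3, at 147, 83.8 and 126 CPM in MttpLKO and at 159, 100 and 133 CPM in control libraries. DKO replicates 2 and 3 were the lowest of the 9, but DKO replicate 1 stood within the control range, so the genotypes overlapped. Its log2 fold change was -0.50 in DKO against control, with a 95% interval of -1.13 to 0.14, and -0.14 in MttpLKO against control, with an interval of -0.78 to 0.50 (edgeR's quasi-likelihood test, adjusted p = 0.575 and 0.983). The DKO value was -0.91 without DKO replicate 1, -0.30 without DKO replicate 3 and -0.31 without control replicate 1. The MttpLKO value turned to 0.023 without control replicate 1 and 0.057 without MttpLKO replicate 2.

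Acaca, the carboxylase whose malonyl-CoA feeds the synthase, had 46.1, 40.4 and 31.8 CPM in DKO, 48.2, 37.5 and 50 CPM in MttpLKO and 69.6, 55.1 and 48.7 CPM in control libraries. Every DKO library lay below every control library, while MttpLKO replicate 3 reached into the control range. The DKO value was 1.47-fold lower than control (log2 fold change -0.55 ± 0.17 SE; edgeR's quasi-likelihood test, adjusted p = 0.271) and did not pass the test. A gap without overlap in the lower direction was present for 9.18% of all genes in DKO against control, and for 3 of the 10 members, Acaca, Scd1 and Me1.

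Acacb, the carboxylase at the mitochondrial surface whose malonyl-CoA restrains fatty acid oxidation, departed from the others in DKO replicate 3. It had 72.5, 61.7 and 148 CPM in DKO, 75.0, 48.4 and 71.5 CPM in MttpLKO and 96.1, 66.7 and 73.2 CPM in control libraries. DKO replicate 3, where 7 of the other 9 members were at their DKO minimum, held the highest Acacb value of all 9 libraries. The log2 fold change was 0.26 in DKO against control, with an interval of -0.40 to 0.91, and it was -0.23 without DKO replicate 3. In MttpLKO against control it was -0.28, with an interval of -0.93 to 0.38.

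Fasn had 614, 344 and 207 CPM in DKO, 397, 243 and 359 CPM in MttpLKO and 652, 527 and 524 CPM in control libraries. All MttpLKO libraries lay below all control libraries, while DKO spanned nearly the whole range of the series, with a highest value 2.97 times its lowest. Fasn averaged 388 ± 207 CPM in DKO, 333 ± 80.0 CPM in MttpLKO and 567 ± 73.3 CPM in control libraries (SD, n = 3 each).

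MttpLKO Fasn stood 1.7-fold below control (log2 fold change -0.77 ± 0.32 SE; edgeR's quasi-likelihood test, adjusted p = 0.664) and did not pass the test. In DKO against control the log2 fold change was -0.55, with an interval of -1.26 to 0.16, and it was -1.04 without DKO replicate 1 and -0.25 without DKO replicate 3. DKO against MttpLKO gave 0.22, with an interval of -0.49 to 0.93, and -0.27 without DKO replicate 1. In MttpLKO against control, libraries that did not overlap were found for 3 members in the lower direction, Fasn, Srebf1 and Thrsp (background 6.99%), and for 1 in the higher direction, Me1 (background 7.27%).

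Elovl6 had 92.9, 38.0 and 55.1 CPM in DKO, 64.2, 44.6 and 91.8 CPM in MttpLKO and 135, 74.4 and 65.1 CPM in control libraries. The 3 genotypes overlapped, and within each the highest library held at least 2.06 times the lowest. Against control, the 95% interval of the log2 fold change was -1.36 to 0.24 for DKO and -1.25 to 0.35 for MttpLKO. The DKO value of -0.56 was -0.98 without DKO replicate 1, -0.29 without DKO replicate 2 and -0.15 without control replicate 1. The MttpLKO value of -0.45 was -0.23 without MttpLKO replicate 2, -0.76 without MttpLKO replicate 3 and -0.060 without control replicate 1.

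Scd1, the desaturase that makes oleate, differed most from control in both mutant genotypes. It had 1020, 643 and 726 CPM in DKO, 861, 516 and 1440 CPM in MttpLKO and 2120, 1830 and 1360 CPM in control libraries. Every DKO library was below every control library. Of the MttpLKO libraries only replicate 3, the one that stands apart by several marker sums, reached the control range.

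DKO Scd1 stood 2.22-fold below control (log2 fold change -1.15 ± 0.33 SE, interval -1.87 to -0.44; edgeR's quasi-likelihood test, adjusted p = 0.216). MttpLKO Scd1 stood 1.89-fold below control (log2 fold change -0.92 ± 0.32 SE; edgeR's quasi-likelihood test, adjusted p = 0.538). Neither passed the test over all genes, but the DKO difference passed with DESeq2 (adjusted p = 0.0163) and in edgeR's quasi-likelihood test with no low-count filter (adjusted p = 0.0182). Those settings called 255 and 201 genes in DKO against control, against 49 in the main test. No other setting called Scd1 in this comparison. With each library left out in turn its adjusted p by edgeR's quasi-likelihood test ran from 0.0674 to 0.538. DKO and MttpLKO differed by a log2 fold change of -0.24, with an interval of -0.95 to 0.47, which turned to 0.22 without MttpLKO replicate 3. Scd1 has close relatives in Scd2, Scd3 and Scd4, and the sources used here do not say how reads shared among them were counted.

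Of the regulators, Srebf1 had 439, 426 and 125 CPM in DKO, 314, 164 and 191 CPM in MttpLKO and 387, 341 and 369 CPM in control libraries. The MttpLKO libraries all lay below the controls, and DKO split, with replicates 1 and 2 above every control library and replicate 3 the lowest of the 9. In MttpLKO against control Srebf1 was 1.64-fold lower (log2 fold change -0.71 ± 0.39 SE; edgeR's quasi-likelihood test, adjusted p = 0.816). In DKO against control the log2 fold change of -0.15 had an interval of -1.0 to 0.70 and became 0.24 without DKO replicate 3. Srebf1 overlaps Rai1, which lies on the opposite strand at up to 33.2 CPM, and the sources used here do not say whether counting used strand. The counts do not separate the SREBP1a and SREBP1c transcripts.

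Mlxipl varied least of the factors. It had 1200, 1110 and 927 CPM in DKO, 1030, 885 and 1120 CPM in MttpLKO and 1200, 1080 and 1120 CPM in control libraries, and the genotypes overlapped throughout. The interval of its log2 fold change was -0.36 to 0.23 in DKO against control and -0.46 to 0.13 in MttpLKO against control, so that a change of 1 log2 unit lies outside both.

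Thrsp had 651, 414 and 165 CPM in DKO, 552, 483 and 552 CPM in MttpLKO and 768, 639 and 713 CPM in control libraries. MttpLKO lay below control in every library, while DKO replicate 1 reached the control range and DKO replicate 3 was the lowest of the 9. DKO was 1.72-fold lower than control (log2 fold change -0.79 ± 0.35 SE; edgeR's quasi-likelihood test, adjusted p = 0.442), and MttpLKO was 1.34-fold lower (log2 fold change -0.42 ± 0.35 SE; edgeR's quasi-likelihood test, adjusted p = 0.927). Neither passed the test, and the DKO value against control was -1.29 without DKO replicate 1 and -0.41 without DKO replicate 3. In bulk liver, fewer cells of a type and less RNA per cell cannot be told apart for any of these genes.

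**Figure D2:**
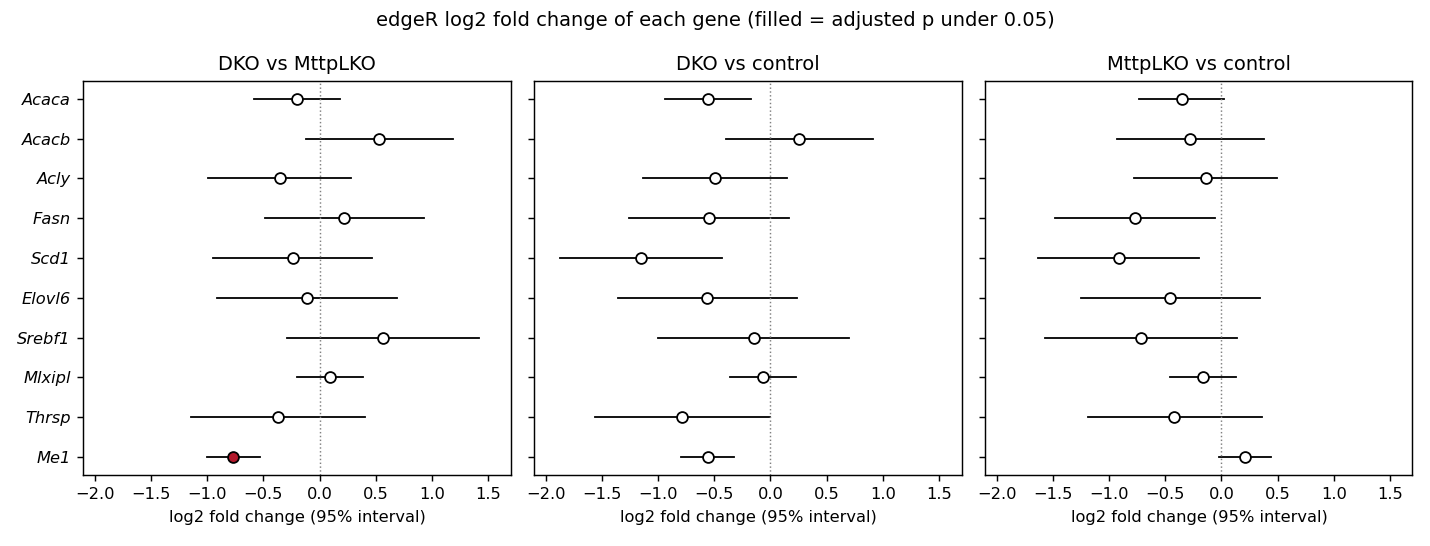
Log2 fold change of each gene with its 95% interval for DKO against MttpLKO, DKO against control and MttpLKO against control; filled points passed an adjusted p of 0.05. Me1 in DKO against MttpLKO, at -0.77, is the only filled point, and Scd1 has the most negative value in DKO against control, at -1.15.

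Per kilobase of exon, the order of the 10 genes was alike in the 3 genotypes. Thrsp had the highest mean, at 321 ± 190 RPKM (CPM per kilobase of exon) in DKO, 414 ± 31.0 in MttpLKO and 553 ± 50.7 in control libraries (SD, n = 3 each). In DKO its range overlapped that of Mlxipl. In DKO replicate 3 Thrsp was at 129 RPKM, below Mlxipl at 173 RPKM and Scd1 at 150 RPKM. Scd1 was at 165 ± 41.2 RPKM in DKO, 194 ± 96.9 in MttpLKO and 366 ± 79.2 in control libraries, and Mlxipl at 201 ± 26.2, 189 ± 22.0 and 211 ± 10.9 RPKM in the same order of genotypes. Scd1 ranked 3 in DKO and 2 in MttpLKO and control, but the ranges of Scd1 and Mlxipl overlapped in both mutant genotypes. Srebf1 and Fasn followed, overlapping in every genotype, at 64.9 ± 4.15 and 57.6 ± 7.44 RPKM in control libraries.

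The lower part of that order held Acly, Me1 and Elovl6, with neighbours that overlapped in most genotypes, at control means of 24.8, 21.9 and 15.4 RPKM. Me1 ranked above Acly in MttpLKO only, at 25.3 ± 1.91 against 22.5 ± 6.05 RPKM, and these ranges overlapped. The carboxylases were lowest per kilobase. Acacb averaged 9.76 ± 4.87 RPKM in DKO, 6.74 ± 1.5 in MttpLKO and 8.17 ± 1.60 in control libraries, and Acaca averaged 2.60 ± 0.48 RPKM in DKO, 2.98 ± 0.45 in MttpLKO and 3.81 ± 0.71 in control libraries, with no overlap between these genes in any genotype.

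Much of the spread lay between pools of 1 genotype, and most members shared it. Of the 9 genes other than Me1, control replicate 1 was the highest control library for all 9 and MttpLKO replicate 2 the lowest MttpLKO library for all 9. In DKO, replicate 1 was the highest library for 8 of 9, and replicate 3 the lowest for 6 of 9 (Acaca, Acly, Fasn, Srebf1, Mlxipl and Thrsp). Within DKO the highest library held 3.94 times the lowest for Thrsp and 3.52 times for Srebf1, while within control these ratios were 1.20 and 1.14. For Me1 the ratio was 1.16 in DKO, 1.15 in MttpLKO and 1.18 in control libraries. The hepatocyte marker sum moved in DKO the other way, at 67600, 85100 and 99300 CPM in replicates 1 to 3. It lay at 97900 to 108000 CPM in MttpLKO and 91500 to 104000 CPM in control libraries. The rise in DKO was mostly that of Alb, at 35000, 45100 and 58200 CPM. Cyp2e1 also rose from replicate 1 to 3, but the remaining markers did not rise in step, such as Ttr at 6780, 9350 and 7310 CPM and Apoa1 at 9260, 14900 and 12800 CPM. The part of hepatocyte content in these values was not tested.

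Genes that respond to insulin and fasting were compared across the same libraries after their values had been seen. Igfbp1, a liver gene that insulin represses, had 94.5, 129 and 395 CPM in DKO, 235, 465 and 131 CPM in MttpLKO and 137, 86.5 and 144 CPM in control libraries. Its highest libraries were MttpLKO replicate 2 and DKO replicate 3, which are the libraries with the lowest Fasn of their genotypes. Foxo1, a factor that acts in the fasted liver, had its highest values in the same libraries, 105 CPM in DKO replicate 3 and 113 CPM in MttpLKO replicate 2, against 67.3 to 80.1 CPM in the other 7. The pattern did not hold for the whole insulin list: of its 12 genes, 9 were highest in DKO replicate 3 within DKO and 3 in MttpLKO replicate 2 within MttpLKO, and only Foxo1, Trib1 and Igfbp1 did both. Irs2, which transmits the insulin signal, was highest in MttpLKO replicate 1 within MttpLKO, and Trib3 was highest in DKO replicate 2 and MttpLKO replicate 1. G6pc, the glucose-releasing phosphatase of the fasted liver, had 399 CPM in DKO replicate 3 and 602 CPM in MttpLKO replicate 2, but also 403 CPM in DKO replicate 1 and 564 CPM in control replicate 3. Mid1ip1, a relative and partner of Thrsp, had its lowest values in DKO replicate 3 and MttpLKO replicate 2, 20.4 and 30.3 CPM, against 40.1 to 76.7 CPM elsewhere. The part of insulin or feeding state in these values was not tested.

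**Figure D3:**
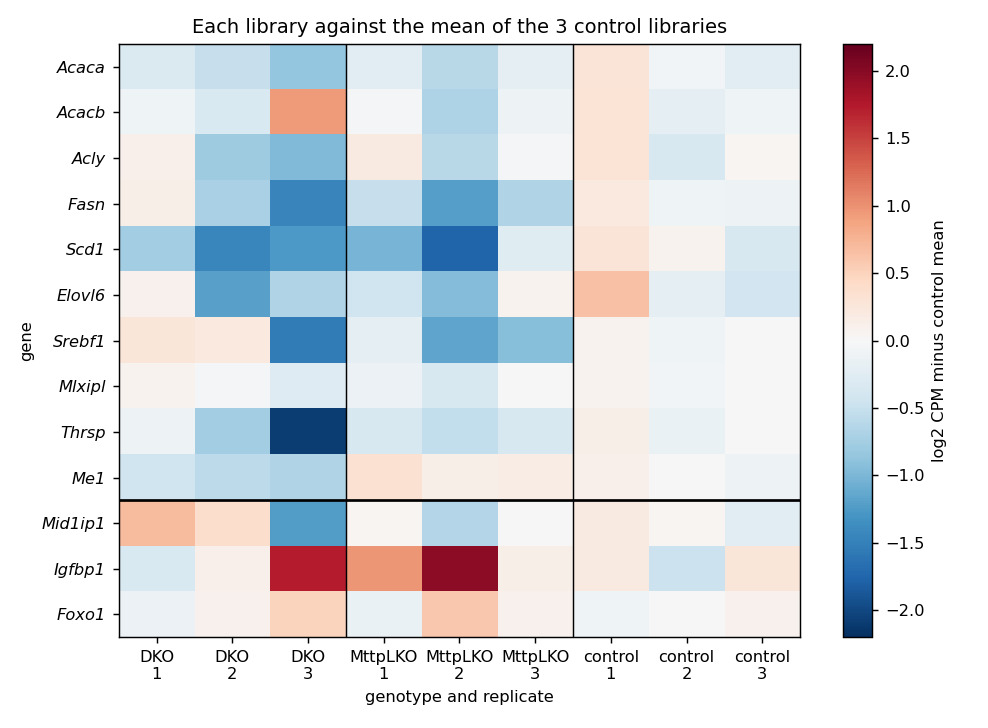
Log2 CPM of each gene minus its mean over the 3 control libraries, for the 9 libraries with DKO at the left, MttpLKO in the middle and control at the right; the 10 lipogenesis genes stand above the line and Mid1ip1, Igfbp1 and Foxo1 below it. DKO replicate 3 and MttpLKO replicate 2 are blue for most lipogenesis genes and red for Igfbp1, and the Me1 row is blue in all 3 DKO libraries.

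Likeness across the 9 libraries was measured as the root mean square difference between centred log2 CPM profiles, over 9364 genes with a mean of at least 5 CPM. The genes outside the list closest to Fasn were Sspo, 4732419C18Rik, Hsd3b2, Gm12909 and Ifit3, at 0.19 to 0.29 log2 units, where the profile of Fasn itself had a spread of 0.55. Sspo, the closest, had 7.64, 5.28 and 3.18 CPM in DKO, 5.08, 4.04 and 5.89 CPM in MttpLKO and 7.48, 7.18 and 8.21 CPM in control libraries. Of the other members, Acaca ranked 14, Acly 16, Srebf1 17 and Thrsp 19 in likeness to Fasn, at 0.32 to 0.34 log2 units, and Elovl6, Mlxipl and Scd1 ranked 95, 130 and 147. Me1 ranked 4136 and Acacb 8733. All points come from the same 9 libraries, and the value is a description.

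Other genes of the pathway were taken in 7 lists with 95 genes, of which 93 were tested and Scd3 and Pnpla5 were too low. None was called in any comparison by edgeR's quasi-likelihood test. At an unadjusted p under 0.05 there were 14 in DKO against control, 8 in DKO against MttpLKO and 7 in MttpLKO against control, where 11.2%, 9.1% and 6.97% of all tested genes had one. DESeq2 called 3 in DKO against control (Elovl1, Gckr and Khk), 2 in DKO against MttpLKO (Gckr and Tm6sf2) and 0 in MttpLKO against control. Over all 14741 tested genes it called 255, 214 and 165 in these comparisons, more than edgeR's 49, 59 and 51.

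Sugar handling and ChREBP targets, 14 genes, had the medians farthest from 0 in the DKO comparisons. Lower values were found for 13 of 14 in DKO against control, where 50.4% of all tested genes had one. The median log2 fold change was -0.31 against -0.0019 over all genes, and 9 had an unadjusted p under 0.05, where 11.2% of all genes did. In DKO against MttpLKO 12 of 14 had a lower value, where 53.1% of all genes did, with a median of -0.33 against -0.016. An unadjusted p under 0.05 was found there for 6, where 9.1% of all genes had one. Both comparisons rest on the same 3 DKO libraries. In MttpLKO against control the count of lower values was 7 of 14, where 47.7% of all genes had one, and the median was 0.0025. With each library left out in turn the DKO counts ran from 11 to 13 against control and from 12 to 13 against MttpLKO.

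Gckr, which encodes the glucokinase regulatory protein, had 165, 166 and 128 CPM in DKO, 246, 254 and 222 CPM in MttpLKO and 188, 257 and 267 CPM in control libraries. All 3 DKO libraries lay below the other 6. DKO libraries that all lay below control were found for 9.18% of all genes, and DKO libraries that all lay below MttpLKO for 5.83%. DKO Gckr stood 1.55-fold below control (log2 fold change -0.64 ± 0.15 SE; edgeR's quasi-likelihood test, adjusted p = 0.148) and passed the test with DESeq2 (adjusted p = 0.0134).

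Tm6sf2, which acts in loading lipid onto VLDL, had 36.6, 38.0 and 37.7 CPM in DKO, 66.6, 54.4 and 49.6 CPM in MttpLKO and 42.9, 50 and 45.6 CPM in control libraries. DKO lay below both other genotypes in every library (background 5.83% against MttpLKO and 9.18% against control). The log2 fold change in DKO against MttpLKO was -0.60 ± 0.12 SE (edgeR's quasi-likelihood test, adjusted p = 0.0794). Without MttpLKO replicate 3 the adjusted p of edgeR's quasi-likelihood test was 0.0366.

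Khk, the fructokinase, and Pklr, liver pyruvate kinase, were lower in all DKO libraries than in all control libraries, at 501 ± 108 and 120 ± 41.6 CPM in DKO against 730 ± 9.59 and 206 ± 15.0 CPM in control libraries (SD, n = 3 each; edgeR's quasi-likelihood test, adjusted p = 0.211 and 0.309). Gpd1, cytosolic glycerol phosphate dehydrogenase, was the member of the list with a higher value in DKO, at 543, 605 and 433 CPM in DKO against 288, 398 and 394 CPM in control libraries (edgeR's quasi-likelihood test, adjusted p = 0.271). Fgf21, a hormone of the liver, was at 0.36 to 1.45 CPM in DKO, 0.56 to 0.96 CPM in MttpLKO and 1.21 to 2.78 CPM in control libraries, and in MttpLKO stood 2.98-fold below control (edgeR's quasi-likelihood test, adjusted p = 0.416). Khk, Pklr and Gpd1 were chosen after their values were seen. DKO libraries that all lay below control, as for Khk and Pklr, were found for 9.18% of all genes. The share with DKO libraries that all lay above control, as for Gpd1, is not given here.

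In the DKO comparisons the medians of the other 6 lists were closer to 0 than that of the sugar list, and in MttpLKO against control they were farther from it. The 12 genes of acetyl-CoA and NADPH supply beyond Acly and Me1 had medians of -0.0062 in DKO against control, 0.0058 in DKO against MttpLKO and -0.038 in MttpLKO against control, and none had an unadjusted p under 0.05. Acss2, which makes acetyl-CoA from acetate, had the smallest p in DKO against control, at 120, 93.4 and 77.5 CPM in DKO and 182, 132 and 114 CPM in control libraries (edgeR's quasi-likelihood test, adjusted p = 0.487). Taldo1 and H6pd, enzymes of pentose phosphate metabolism, had the smallest p in MttpLKO against control and in DKO against MttpLKO, with log2 fold changes of -0.17 and 0.29 (edgeR's quasi-likelihood test, adjusted p = 0.884 and 0.596).

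Partners and kinases of the carboxylase and the synthase, 12 genes, had medians of -0.012, 0.040 and -0.077 in DKO against control, DKO against MttpLKO and MttpLKO against control, with none at an unadjusted p under 0.05. Stk11, the kinase upstream of AMPK, and Mlycd, which breaks down malonyl-CoA, had the smallest p of this list, with fold differences of no more than 1.16 in the comparisons that chose them. The 14 tested desaturases and elongation enzymes included Elovl1, a very-long-chain elongase, at 75.1, 72.2 and 72.9 CPM in DKO, 64.7, 53.8 and 61.8 CPM in MttpLKO and 59.8, 51.2 and 54.3 CPM in control libraries. Elovl1 was 1.33-fold higher in DKO than in control (edgeR's quasi-likelihood test, adjusted p = 0.161). Scd2, a relative of Scd1, stood at a mean of 7.91 CPM in DKO, 8.17 CPM in MttpLKO and 5.10 CPM in control libraries (edgeR's quasi-likelihood test, adjusted p = 0.429 for DKO and 0.648 for MttpLKO against control).

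SREBP processing and partner factors, 18 genes, had medians between -0.0096 and 0.025 in the 3 comparisons. Nfyb, a subunit of the factor that binds the NF-Y box, was 1.31-fold higher in MttpLKO than in control (edgeR's quasi-likelihood test, adjusted p = 0.477). The libraries did not overlap, which held in this direction for 7.27% of all genes. Mlx, the partner of ChREBP, was 1.2-fold higher in DKO than in MttpLKO (edgeR's quasi-likelihood test, adjusted p = 0.468). Of 11 tested other SREBP1 and LXR targets, 6 had a lower value in DKO than in control (median -0.082; 50.4% of all genes), 3 in DKO than in MttpLKO (median 0.13; 53.1%) and 8 in MttpLKO than in control (median -0.20; 47.7%). Aacs, which activates acetoacetate for lipid synthesis, had 81.9, 104 and 90.5 CPM in DKO, 82.5, 91.1 and 137 CPM in MttpLKO and 212, 105 and 142 CPM in control libraries (edgeR's quasi-likelihood test, adjusted p = 0.311 for DKO and 0.692 for MttpLKO against control). Lpin1, a phosphatidate phosphatase, was at 285, 280 and 885 CPM in DKO and 534, 1210 and 971 CPM in MttpLKO libraries (edgeR's quasi-likelihood test, adjusted p = 0.565). Its highest library within each was DKO replicate 3 and MttpLKO replicate 2.

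Insulin signalling, 12 genes, had medians of 0.12, 0.016 and 0.065 in DKO against control, DKO against MttpLKO and MttpLKO against control. Igfbp1 had the smallest p of this list in MttpLKO against control, 2.26-fold higher (edgeR's quasi-likelihood test, adjusted p = 0.72). Akt2, an insulin-activated kinase, was 1.2-fold higher in DKO than in control, and Trib1, a regulator of liver lipid genes, in DKO stood 1.21-fold below MttpLKO (edgeR's quasi-likelihood test, adjusted p = 0.372 and 0.624).

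**Figure D4:**
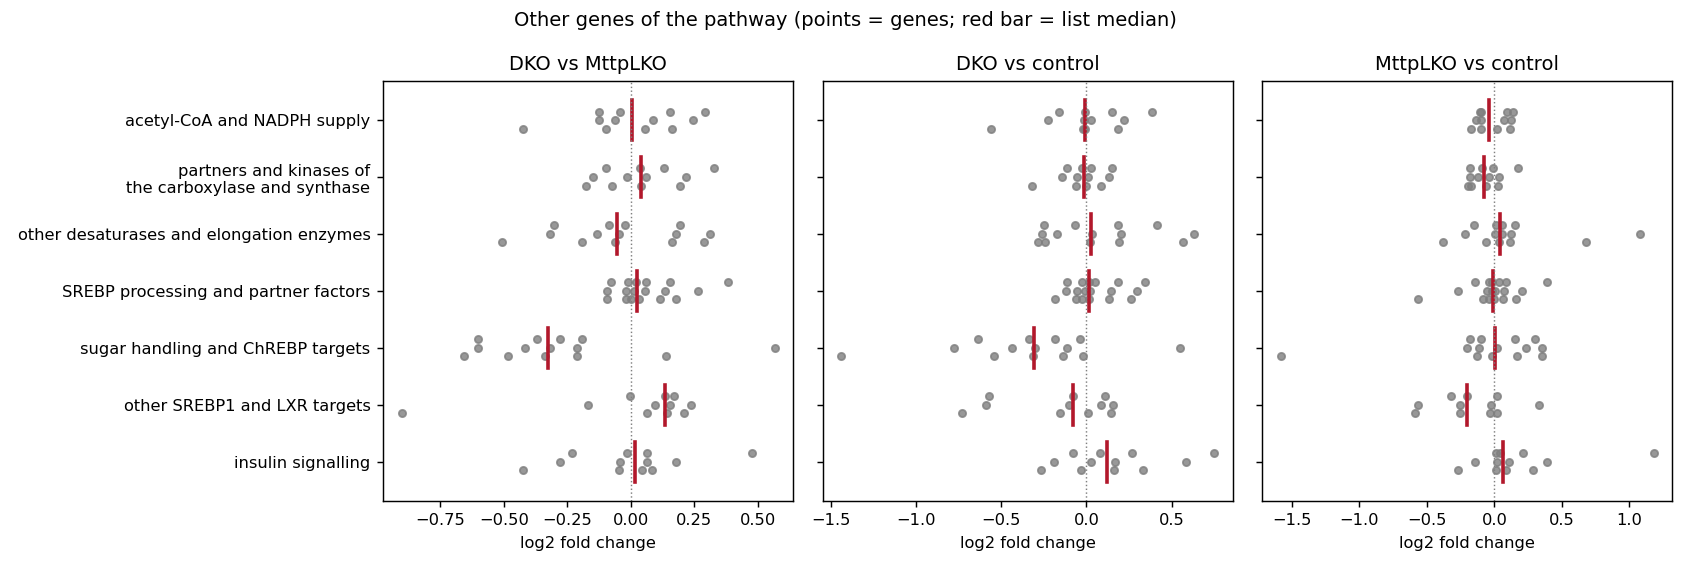
Log2 fold change of the 93 tested genes of the 7 pathway lists in DKO against MttpLKO, DKO against control and MttpLKO against control, with each axis on its own scale; points are genes and red bars are list medians. The median of the sugar handling list is -0.33 and -0.31 in the DKO comparisons and 0.0025 in MttpLKO against control.

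Me1 is read apart, because it lies on a stretch of chromosome 9 in which several genes changed. It had 62.1, 56.3 and 53.4 CPM in DKO, 106, 92.5 and 94.0 CPM in MttpLKO and 91.4, 83.9 and 77.7 CPM in control libraries. All DKO libraries lay below the other 6, and all MttpLKO libraries lay above the controls. DKO libraries that all lay below MttpLKO were found for 5.83% of all genes. Me1 fell 1.7-fold in DKO against MttpLKO (log2 fold change -0.77 ± 0.11 SE, interval -1.0 to -0.53; edgeR's quasi-likelihood test, adjusted p = 0.0105). The difference kept its size but missed the threshold of edgeR's quasi-likelihood test without MttpLKO replicate 2 (adjusted p = 0.054), without DKO replicate 2 (adjusted p = 0.0585) and in a fit of the 6 compared libraries alone (adjusted p = 0.0505).

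Against control, Me1 was 1.47-fold lower in DKO (log2 fold change -0.56 ± 0.11 SE; edgeR's quasi-likelihood test, adjusted p = 0.0667) and did not pass, but it passed with DESeq2 (adjusted p = 0.000684). In MttpLKO against control it was 1.16-fold higher (log2 fold change 0.21 ± 0.11 SE, interval -0.02 to 0.44; edgeR's quasi-likelihood test, adjusted p = 0.778). The test of any genotype difference gave an adjusted p of 0.0171 by edgeR's quasi-likelihood test, which ran from 0.0227 to 0.0742 with each library left out in turn and was over 0.05 without control replicate 2, MttpLKO replicate 2, DKO replicate 2 or DKO replicate 3.

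Within 5 Mb of the start of Me1, 34 other genes were tested. In DKO 6 of them, or 17.6%, were called against MttpLKO and 6 against control, where 0.4% and 0.332% of all tested genes were called, and 0 of 34 were called in MttpLKO against control. The 6 genes were Bckdhb, Mrap2, Cep162, Nt5e and Zfp949, which rose in DKO in both comparisons, and 9430037G07Rik, which fell in both. Me1 was therefore 1 of 2 called genes of the stretch with a lower value in DKO than in MttpLKO. Within 1 Mb, 2 of 9 were called, Mrap2 and Cep162, and within 10 Mb the count was 6 of 77.

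Zfp949, a zinc finger gene 1.97 Mb from Me1, had 30.9, 30.7 and 32.4 CPM in DKO, 9.01, 9.45 and 7.38 CPM in MttpLKO and 8.69, 8.58 and 9.01 CPM in control libraries. The 3 DKO libraries lay close together and far above the other 6, 3.64-fold higher than MttpLKO (edgeR's quasi-likelihood test, adjusted p = 2.24e-05). Mrap2, an accessory protein of melanocortin receptors 0.563 Mb away, was nearly confined to DKO, with 2468 counts over the DKO libraries, 2 over MttpLKO and 7 over control. The ratio of pooled CPM was 1400 for DKO to MttpLKO, with an exact 95% interval of 388 to 11600 that covers counting error only. The gene 9430037G07Rik had 0 counts in all DKO libraries, 130 over MttpLKO and 53 over control, which puts DKO at least 38.1-fold lower than MttpLKO with a floor of 3 counts over the DKO libraries.

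Nt5e, the ecto-nucleotidase CD73, was 3.02-fold higher in DKO than in MttpLKO, at 16.1 ± 0.55 CPM in DKO, 5.34 ± 1.13 in MttpLKO and 3.64 ± 1.20 in control libraries (SD, n = 3 each). Cep162, a centrosomal protein gene, was 2.8-fold higher, at 13.9 ± 3.63 CPM in DKO, 4.95 ± 0.65 in MttpLKO and 5.46 ± 0.89 in control libraries. Bckdhb, a subunit of the enzyme that degrades branched-chain keto acids, lies 2.66 Mb on the other side of Me1 and averaged 138 ± 4.30 CPM in DKO, 90.9 ± 9.88 in MttpLKO and 81.2 ± 4.41 in control libraries. Adjusted p-values in DKO against MttpLKO were 0.013, 0.0145 and 0.0381 by edgeR's quasi-likelihood test. Nt5e missed the threshold in that comparison without MttpLKO replicate 2 or DKO replicate 2, Cep162 without MttpLKO replicate 2 or DKO replicate 1, and Bckdhb in 8 of 9 fits that left out a library, in the fit of the 6 compared libraries and with a replicate block (edgeR's quasi-likelihood test, adjusted p = 0.166 and 0.106). In DKO against control, Cep162 missed it without any 1 of the control replicates, without DKO replicate 1 or 3 and with limma-voom, Bckdhb without any 1 of the control replicates or DKO replicate 3, and 9430037G07Rik without control replicate 2. For Me1, the deletion of Fabp1, which lies on chromosome 6, and any other difference of the DKO mice on this stretch of chromosome 9 cannot be told apart in these libraries.

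**Figure D5:**
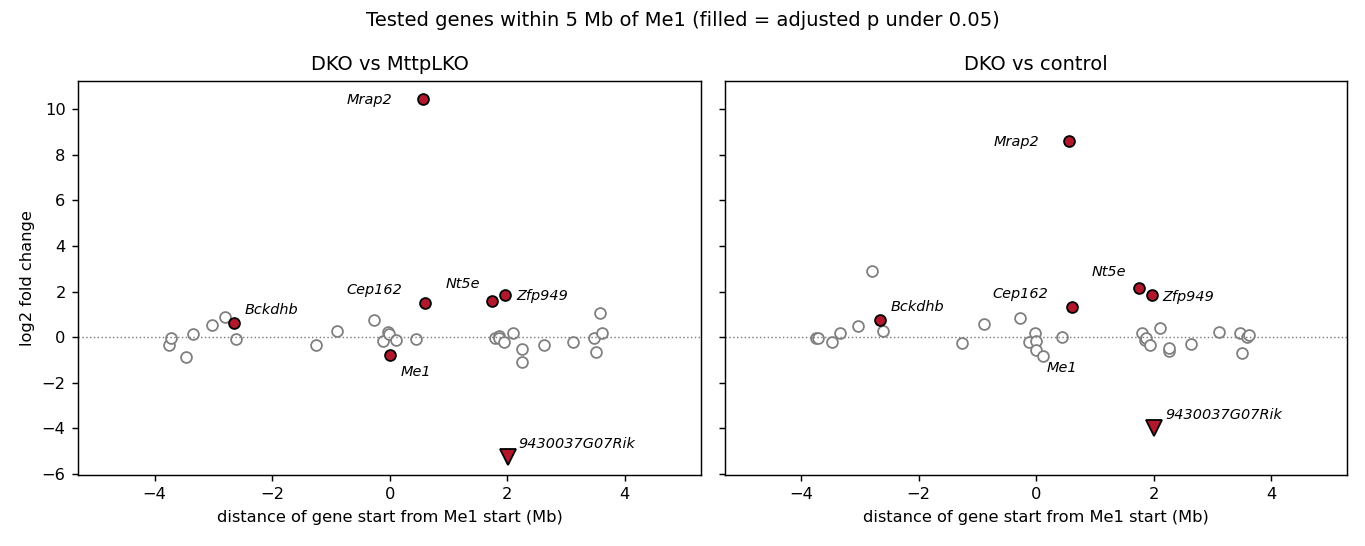
Log2 fold change of the 34 tested genes within 5 Mb of Me1, and of Me1 itself, against the distance of their starts, in DKO against MttpLKO and DKO against control; filled points passed an adjusted p of 0.05. The triangle for 9430037G07Rik is the bound from the 3-count floor and the Mrap2 point is the ratio of pooled CPM; called genes lie on both sides of Me1, between -2.66 and 2.01 Mb.

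The genes outside the list most like Me1 across the 9 libraries were Abca8b, Ropn1l, Gas2, Zfp330 and Tm6sf2, at 0.12 to 0.17 log2 units, where the profile of Me1 had a spread of 0.34. None of them lies on chromosome 9, but 5 genes are too few for this to bear on the stretch around Me1. Abca8b, a membrane transporter, had 22.5, 22.6 and 24.6 CPM in DKO, 45.5, 37.0 and 36.8 CPM in MttpLKO and 34.4, 35.4 and 36.0 CPM in control libraries. Of the lipogenesis genes the closest to Me1 was Acaca, at rank 1145, and the farthest was Srebf1, at rank 9120. By this measure Me1 and Fasn, both enzymes of the pathway, were 0.57 log2 units apart.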

How the data were processed

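Oligo(dT)-selected liver RNA was sequenced from 9 pools of 3 mice, 3 pools per genotype, per the labels' protocols. The authors deposited whole-number counts of reads per gene, not normalized, with CPM and RPKM columns beside them, per the file headers. Recomputing these deposited CPM and RPKM values gave the same numbers (largest differences 5.1e-11 CPM and 4.7e-11 RPKM) and they were not used further; printed CPM and RPKM are on TMM-scaled library sizes. The submitters' processing notes name STAR 2.0.4b, featureCounts 1.4.5 and Subread without saying what each did. The sources used here do not give the build, the annotation, the strand setting or the handling of multiply matching reads. Of the genes matched by identifier, 82.13% had the same start as in GENCODE M21 (GRCm38).

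Genes were kept by filterByExpr with a minimum count of 10 and tested with edgeR 4.0.16 (R 4.3.3), TMM scaling and the quasi-likelihood F test, in 1 fit of 3 genotype means over the 9 libraries, with Benjamini-Hochberg adjustment over 14741 genes. The common dispersion was 0.0335. Standard errors are the fold change divided by the root of F, and intervals are 95% t intervals. The members, the lists and the tests were chosen with earlier results of these data known. Genes named beside the members are the gene with the smallest p of each list and comparison, called genes within 5 Mb of Me1, the 5 closest profiles to Fasn and to Me1, and any that the text says were chosen after their values were seen. Alternatives were RLE and upper-quartile scaling, minimum counts of 1 and 50, no filter, DESeq2 1.42.0, limma-voom 3.58.1, removal of the 20 most abundant genes, the 6 compared libraries alone, the replicate number as a block and each library left out. Counts of members and of sugar genes with lower values under these settings were added after seeing the data. Replicate pairs differed by more than sampling noise.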

Additional observations from a re-analysis of the deposited data

How the results depend on the processing

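Over the 3 pairwise comparisons, 553 of 570 recomputed member values kept their direction and their side of the threshold. In the test of any genotype difference 3 settings added a call for Scd1 and 4 lost that for Me1. With no low-count filter and with DESeq2, 2 members, Scd1 and Me1, were called in DKO against control and 2, the same genes, in the test of any genotype difference. Without a filter 201 genes were called in DKO against control, 180 in DKO against MttpLKO and 171 in MttpLKO against control, and DESeq2 called 255, 214 and 165. Of the pathway lists, 2 genes were called in DKO against MttpLKO under either setting, and in DKO against control 1 without a filter and 3 with DESeq2. In the fit of the 6 compared libraries alone 0 members were called in DKO against MttpLKO. The cause was not tested. Around Me1 the 1 Mb window held 2 called genes in each DKO comparison, since fewer genes lie in it.

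Leaving out each library in turn gave 0 to 1 member called in DKO against MttpLKO, 0 to 2 in the test of any genotype difference and 0 to 1 pathway gene in DKO against MttpLKO. The members' median in DKO against MttpLKO ran from -0.39 to 0.18. In DKO against control the log2 fold change ran from -0.23 to 0.49 for Acacb, from -0.41 to 0.24 for Srebf1 and from -0.15 to 0.029 for Mlxipl. In DKO against MttpLKO it ran from -0.27 to 0.53 for Fasn, from -0.52 to 0.22 for Scd1, from -0.52 to 0.19 for Elovl6 and from -0.87 to 0.017 for Thrsp. In MttpLKO against control Acly ran from -0.32 to 0.057.

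Samples with the same replicate number did not deviate together (correlations of -0.24 to 0.072), and those with different numbers gave -0.18 to 0.21. Deviations were taken within only 3 libraries per genotype, so these values cannot decide whether the numbers pair the pools. With a replicate block 1 member, Me1, was called in DKO against MttpLKO and 0 in the other comparisons, with 43, 40 and 35 genes called in DKO against MttpLKO, DKO against control and MttpLKO against control. The block moved no other member call. The smallest count of a member in a library was 709, and 3 pools per genotype limit the precision.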
